A study of Mus musculus with 148 samples.

Results

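The wells annotated as CD4 Lef1 T cells were described across genes and tissue statuses in an atlas of immune cells from breast cancer lung metastasis. They were chosen by their label in the study's own cell table, a T cell label that holds both CD4 and Lef1, and are called Lef1 T cells here. There were 3026 such cells among 24020 annotated wells, which is 44.2% of the 6846 T cells and 12.9% of the 23425 immune cells. A Lef1 T cell held a median of 933.5 UMIs (unique molecular identifiers, each counting 1 captured mRNA molecule). For each mouse and tissue status with at least 10 Lef1 T cells the UMIs were added up, which gave 46 sums of 6739 to 492486 UMIs, and levels are given as CPM, the UMIs of a gene per 1000000 UMIs of the sum. The other 17 of the 63 samples held 95 Lef1 T cells and entered no sum.

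All mice were female PA-GFP animals on the C57BL/6 strain, which carry a green fluorescent protein that light switches on. Apart from the uninjected Control animals, they received EO771-tdTomato breast cancer cells in a mammary gland at 8 weeks of age. Control lungs (3 samples) came from mice without a tumor, and Pre-MET lungs (3) from mice that still bore the primary tumor. Relapse-free lungs (6), Distal normal lung tissue (14), Metastasis (13), and the Margin (7) and Core (13) of lung metastases came from mice whose tumor was resected 3 weeks after injection. Primary tumor samples (4) came from the mammary tumor itself, so that any contrast with them is also one between organs. The model is 1 cell line, and Margin and Core cells were sorted as light-activated GFP+ cells, the others as CD31- CD45+ cells. The Core sample of mouse 17 was also gated on CD45, and 224 Lef1 T cells of Relapse-free mice 6 and 7 came from plates gated on GFP without CD45.

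A naive T cell leaves the thymus, has not yet met its antigen, and recirculates between blood and lymphoid organs. The transcription factors Lef1 and Tcf7 act downstream of Wnt signals and keep the cell quiescent and multipotent. Ccr7 guides it into lymph nodes, S1pr1 lets it leave them under the control of Klf2, and Il7r receives the survival signal of interleukin 7. The co-receptor Cd4 marks helper cells and the pair Cd8a and Cd8b1 marks cytotoxic cells. In the mm10 build, Lef1 lies at chr3:131110471-131224356 on the plus strand, Tcf7 at chr11:52252371-52283014 on the minus strand and Cd4 at chr6:124864692-124888221 on the minus strand, all protein-coding.

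Lef1 and Tcf7 were more frequent in the Lef1 T cells than in the CD4 S100a4, Treg and B cell labels of the annotation, and about as frequent in the CD8 Dapl1 label. To compare populations at equal depth, each cell was thinned to 500 UMIs, and the share of cells that kept at least 1 UMI of a gene was counted. Lef1 was detected in 14.2% of the Lef1 T cells and 12.7% of the CD8 Dapl1 T cells (median depth 1077 UMIs), against 5.87% of the CD4 S100a4 T cells, 1.94% of the regulatory T cells (Treg), and 0.379% of the B cells, whose median depths were 1007, 1495.5 and 1001 UMIs. Before thinning the Lef1 share was 22.8% in the Lef1 T cells and 0.853% in the B cells. Tcf7 was detected after thinning in 14.1% of the Lef1 T cells and 13.3% of the CD8 Dapl1 cells. In the Lef1 T cells Ccr7 was detected in 16.8%, Il7r in 21.3%, and Igfbp4, a gene of naive T cells, in 10.5%. Several markers of other T cell states were less frequent, with S100a4 in 3.57% (21.3% of the CD4 S100a4 cells), Foxp3, the master regulator of Treg, in 0.364% (12.1% of Treg), and the proliferation gene Mki67 in 0.198%. The early activation marker Cd69 was not, at 13.1% of the Lef1 T cells, 13.6% of the CD4 S100a4 cells, 15% of Treg and 17% of the CD8 Dapl1 cells. Since the populations were clustered on the same genes, these shares describe the label and test nothing.

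Cells with Cd8 UMIs outnumbered cells with Cd4 UMIs, whereas the label names CD4. Of the 3026 Lef1 T cells, 769 (25.4%) had a UMI of Cd8a or Cd8b1 and none of Cd4, whereas 227 (7.5%) had a UMI of Cd4 and none of Cd8a or Cd8b1. Both were seen in 5 cells (0.165%) and neither in 2025 (66.9%). The CD4 S100a4 label had a like share with Cd4 and a smaller one with Cd8, since of its 903 cells 68 (7.53%) had only Cd4 UMIs and 80 (8.86%) only Cd8 UMIs. Neither was seen in 754 of them (83.5%). Of the 377 CD8 Dapl1 cells 251 (66.6%) had only Cd8 UMIs and 8 (2.12%) only Cd4 UMIs. Of the 206 Treg 6 (2.91%) had only Cd8 UMIs and 52 (25.2%) only Cd4 UMIs. A co-receptor can thus go unseen in many cells, and Cd8a and Cd8b1 together stand against Cd4 alone. The counts therefore do not give the shares of CD4 and CD8 cells. Among the Lef1 T cells, cells with only Cd8 UMIs outnumbered those with only Cd4 UMIs in 42 of the 46 sums, equalled them in 4, and were fewer in 0. By status, cells with only Cd4 UMIs made up 4.97% (Control) to 12.7% (Primary tumor), and cells with only Cd8 UMIs 17.7% (Pre-MET) to 32.5% (Primary tumor).

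After thinning, Cd4 was detected in 4.86% of the Lef1 T cells (7.67% before thinning), 4.43% of the CD4 S100a4 cells (7.64% before thinning), 12.6% of Treg, 1.33% of the CD8 Dapl1 T cells and 0% of the B cells (0.0948% before thinning). Cd8b1 was detected in 13.3% of the Lef1 T cells (18.7% before thinning), 27.1% of the CD8 Dapl1 cells, 3.21% of the CD4 S100a4 cells, 0.485% of Treg and 0.474% of the B cells. Cd8a was detected in 7.96% of the Lef1 T cells (13.6% before thinning), 38.5% of the CD8 Dapl1 cells and 2.33% of the CD4 S100a4 cells. Both co-receptors were thus seen in more Lef1 T cells than in B cells, which should lack them, and the Cd8b1 share lay between those of the CD4 S100a4 and CD8 Dapl1 cells.

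**Figure D1:**
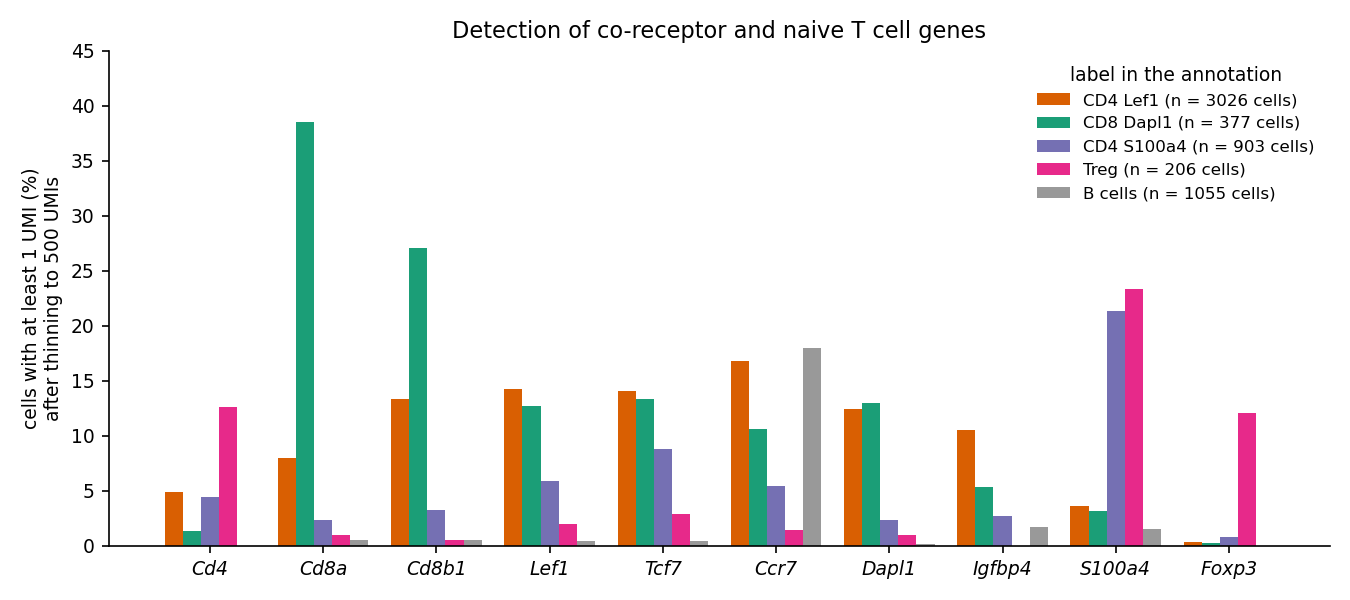
Share of cells with at least 1 UMI of each gene (y axis, %) after each cell was thinned to 500 UMIs, for 5 labels of the annotation (bars). In the cells labelled CD4 Lef1, Cd8b1 was detected in 13.3% and Cd4 in 4.86%.

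Cells with Cd4 UMIs and cells with Cd8 UMIs shared the gene that names the population and differed in others. Thinned Lef1 was detected in 15.4% of the 227 cells with only Cd4 UMIs (95% exact binomial interval 11 to 20.8%) and in 15.3% of the 769 with only Cd8 UMIs (12.9 to 18.1%). S1pr1 was detected in 18.9% (14.1 to 24.7%) of the former and 9.75% (7.75 to 12.1%) of the latter. Igfbp4 was also more frequent with Cd4, at 16.3% (11.7 to 21.8%) against 9.88% (7.87 to 12.2%), intervals that overlap. Cd40lg, the helper ligand of B cell activation, was detected in 3.52% (1.53 to 6.83%) against 0.13% (0.00329 to 0.722%). Cells with Cd8 UMIs more often had Ccr7, at 22.5% (19.6 to 25.6%) against 12.8% (8.73 to 17.8%). The same held for Ly6c2, at 14.8% (12.4 to 17.5%) against 3.52% (1.53 to 6.83%), and for Dapl1, at 18.9% (16.1 to 21.8%) against 10.6% (6.89 to 15.3%). Intervals here cover counting error only, and cells of 1 mouse are not independent, so no test was made. The shares also pool all statuses, among which cells with only Cd4 UMIs made up 4.97% (Control) to 12.7% (Primary tumor). The part of this mix in the differences was not tested.

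The Lef1 T cells were also set beside other T cell populations of the same samples. Ratios are medians over samples of the log2 ratio of CPM + 10, given with no test because the clusters were built on these genes. Over 26 samples with both populations, the Lef1 T cells had 3.69 more of Dapl1, 3.27 more of Cd8b1 and 2.44 more of Ccr7 than the CD4 S100a4 cells, while Il7r was near even (0.18, higher in 16 of 26). They had less of Lgals1 (-3.37), S100a4 (-3.33) and Crip1 (-2.73), genes of activated and memory cells, and Lgals1 and Crip1 were lower in all 26 samples. Also among the lowest were Tmem176b (-3.08) and the T cell receptor gamma constant genes Tcrg-C2 (-2.94) and Tcrg-C1 (-2.71). Tcrg-C1 averaged 17.3 CPM in the Lef1 T cells and 337 CPM in the CD4 S100a4 cells. Whether the CD4 S100a4 label holds gamma-delta T cells was not tested. Cd4 differed by a median of -0.27 and was higher in the Lef1 T cells in 11 of the 26. Against Treg (7 samples), the highest ratio was that of Dapl1 (6.58), and the lowest were those of Penk (-7.71), Tnfrsf9 (-5.91), a co-stimulatory receptor of activated T cells, and Gzmb (-5.15), the cytotoxic protease granzyme B. Against the CD8 Dapl1 cells (9 samples), Cd4 was 3.01 higher (-0.18 to 4.74, higher in 8 samples), at means of 140 and 17.8 CPM. Snapc5 (3.67), Ccs (3.24) and Vti1b (3.14) had higher ratios than Cd4. Nkg7, a cytotoxic granule gene (-2.73), and Cd8a (-2.19) were lower in all 9 samples. Naive genes were mixed in that comparison, with Igfbp4 (1.48), S1pr1 (0.85), Lef1 (0.80), Ccr7 (0.60) and Tcf7 (0.41) above 0 and Il7r (-0.34), Dapl1 (-0.25) and Klf2 (-0.15) below, and S100a4 differed by 0.99.

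Lef1 T cells made up the largest mean shares of T cells in lung tissue without lesions, and smaller ones in metastases, their margins and primary tumors. The mean share was 63.9% ± 5.93 (SD, n = 3) in Pre-MET, 56.9% ± 5.41 (n = 6) in Relapse-free, 54.1% ± 3.87 (n = 3) in Control and 50.6% ± 9.87 (n = 14) in Distal normal tissue. It was 39.1% ± 12.4 (n = 13) in Metastasis, 31.1% ± 6.71 (n = 4) in Primary tumor, 26.3% ± 9.78 (n = 7) in Margin and 22.2% ± 8.89 (n = 13) in Core. Margin and Core, with the lowest means, were also the statuses sorted as light-activated GFP+ cells, and the part of this was not tested. Neighboring statuses in this order overlapped. Pre-MET and Control samples, which are not neighbors in it, did not (58.16 to 70% against 50 to 57.67%).

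**Figure D2:**
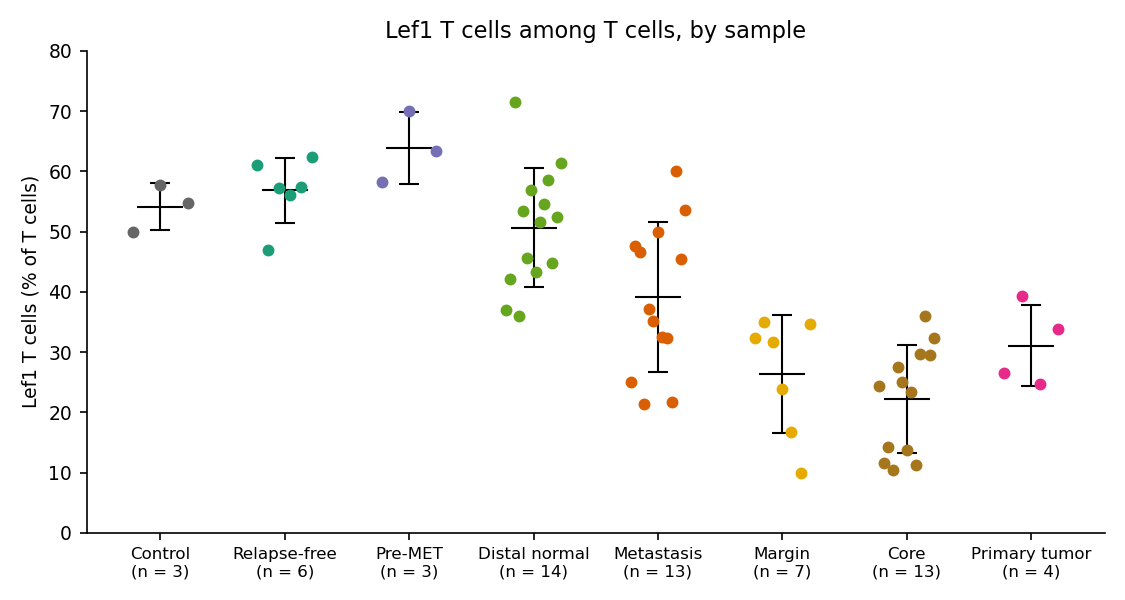
Lef1 T cells as a percentage of T cells (y axis) in each of the 63 samples (points) by tissue status; bars are the mean ± 1 SD. The 4 Primary tumor samples (24.77 to 39.24%) sit below all 3 Pre-MET samples (58.16 to 70%), and Metastasis samples range from 21.43 to 60%.

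None of the 8 comparisons of shares passed at an adjusted p under 0.05 (two-sided permutation tests, Benjamini-Hochberg over the 8). Metastasis was lower than Distal normal by 11.5 percentage points (permutation p = 0.0132, adjusted p = 0.106), and within the 13 mice that had both, the share was lower in Metastasis in 10 and higher in 3. That test takes samples of 1 mouse as independent. Paired by mouse, the mean difference was -12.5 points (exact sign-flip permutation p = 0.0186), which did not pass after adjustment either. With the sequencing batch held fixed, a setting added after the data were seen, the difference was -15.3 points (permutation p = 0.00395, adjusted p = 0.0316), with -16.7, -11.5 and -15.9 points within the 3 shared batches. Metastasis samples of mice 24, 31 and 32 held T cells of more than 1 batch and were placed in the batch of most of their Lef1 T cells. Without these 3, a setting also added after the data were seen, the difference was -13.6 points (exact permutation p = 0.00916) and did not pass (adjusted p = 0.0733), with -16.7, -11.5 and -7.4 points within the batches. Both tests with the batch held fixed also take samples of 1 mouse as independent. Primary tumors differed from Pre-MET lungs by -32.8 points with no overlap (exact permutation p = 0.0286, the smallest that these groups allow, adjusted p = 0.114). Pre-MET exceeded Control by 9.74 points without overlap (exact permutation p = 0.1, again the smallest possible, adjusted p = 0.2). Counted over all immune cells instead of T cells, the sign was opposite, at -8.175 points (exact permutation p = 0.1, adjusted p = 0.16).

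The remaining comparisons were smaller. Relapse-free against Control gave 2.73 points (exact permutation p = 0.512), but -5.846 points among cells of at least 1000 UMIs, and Distal normal against Control -3.49 points (exact permutation p = 0.557). Distal normal against Relapse-free gave -6.22 points as a share of T cells (exact permutation p = 0.167, adjusted p = 0.268), and -10.75 points as a share of all immune cells (exact permutation p = 0.0024, adjusted p = 0.0192). Core against Margin gave -4.1 points (exact permutation p = 0.347), with within-batch differences from -16.2 to 8.75 points and 0.5147 points over all immune cells. Primary tumor against Core gave 8.86 points (exact permutation p = 0.0874), but -4.44 points in the 1 batch that held both, with 1 Primary tumor and 2 Core samples, and -0.2094 points over all immune cells. Lower shares of Lef1 T cells and higher numbers of other T cells cannot be told apart here.

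The defining genes, on which the choice of cells by label partly rests, were present in every tissue status. Lef1 averaged 667 ± 139 CPM (SD, n = 3) in Control, 582 ± 256 (n = 3) in Pre-MET, 535 ± 145 (n = 4) in Margin, 530 ± 176 (n = 4) in Primary tumor and 525 ± 130 (n = 6) in Relapse-free lungs. It averaged 454 ± 189 CPM (n = 10) in Distal normal, 332 ± 270 (n = 8) in Metastasis and 149 ± 168 (n = 8) in Core sums. Neighboring statuses in this order overlapped. In the Core, Lef1 had 64 UMIs in all, was at 0 in 2 of the 8 sums, had a median of 104 CPM, and reached 487 CPM in mouse 36 and 314 CPM in mouse 37. In the Margin it was 320, 589, 594 and 637 CPM in mice 17, 28, 31 and 36. Cores thus held the low values, and 1 Core sum reached into the range of the Margin.

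Lef1 did not pass the test in any comparison. Its largest differences were -1.46 (log2, SE 0.562) between Core and Margin (edgeR p = 0.0103, adjusted p = 0.855) and 1.73 (SE 0.542) between Primary tumor and Core (edgeR p = 0.00159, adjusted p = 0.128). Over Lef1, Tcf7, Cd4, Ccr7, Il7r, S1pr1 and Klf2 in the 8 comparisons, 0 of 56 edgeR tests passed at an adjusted p under 0.05, and 4 had an unadjusted p under 0.05. The depth limits these statements: in the smallest Core sum 3 UMIs correspond to 392 CPM, so a 0 there allows a level above the mean Core level. The choice of cells limits them too, since cells that had lost these genes could carry another label. Neither the presence of these genes in each status nor the 0 of 56 shows that their levels were kept.

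**Figure D3:**
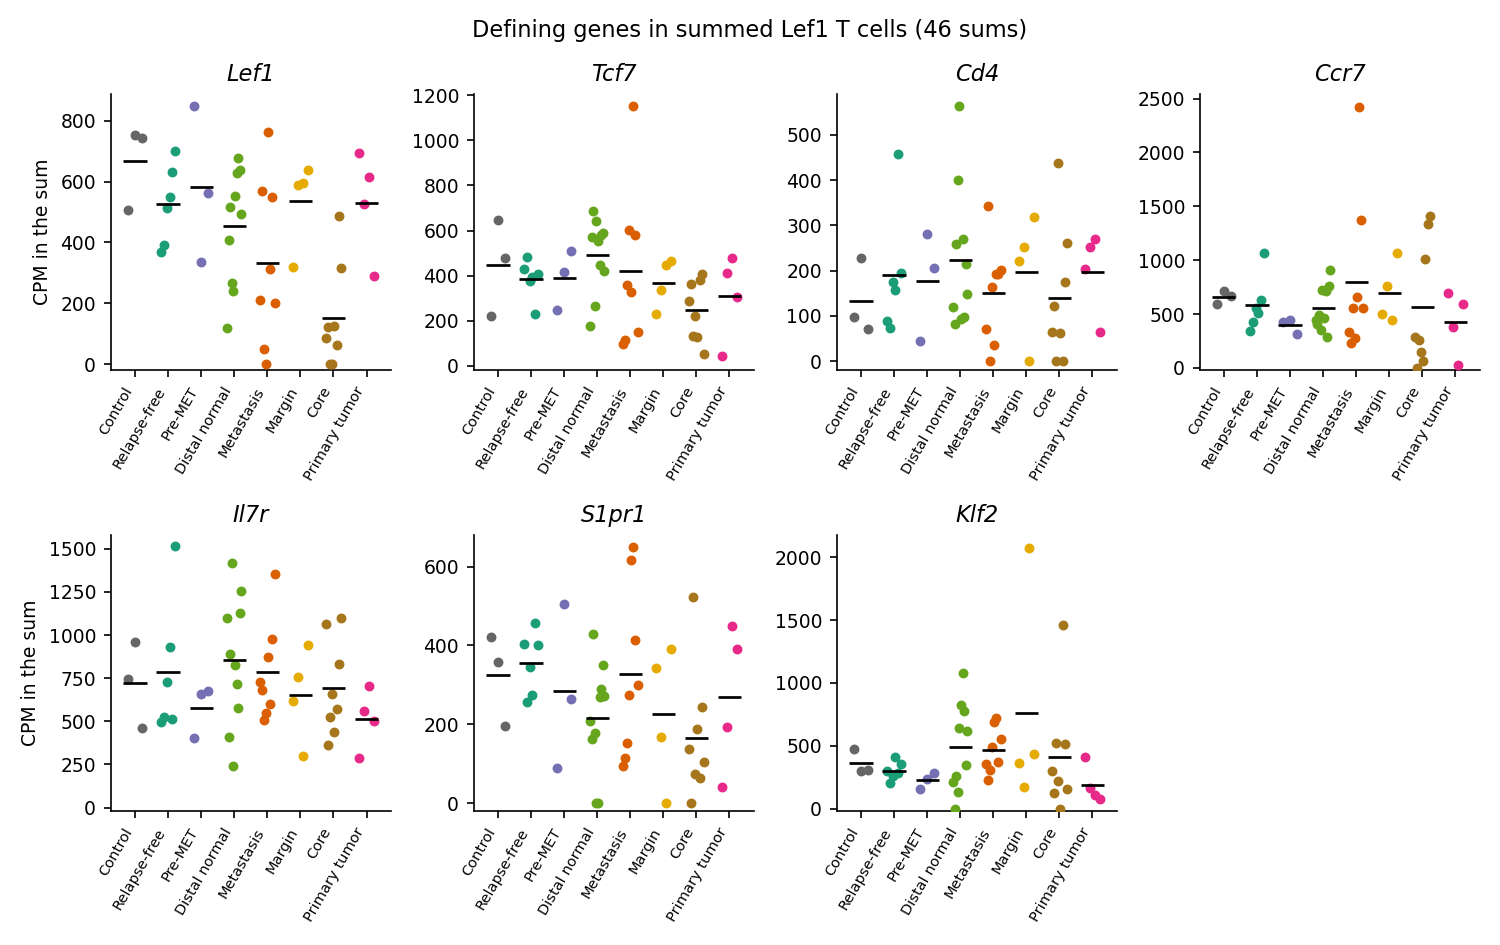
CPM (y axis) of 7 genes of naive T cells in the 46 sums of Lef1 T cells (points) by tissue status; lines are means. Lef1 ranges from 506 to 752 CPM in Control and from 0 to 487 CPM in Core sums, and 0 of the 56 tests on these genes passed.

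Tcf7 had its lowest mean, 245 ± 134 CPM (n = 8), in Core sums and ranged from 178 to 688 CPM in Distal normal sums, where its mean was highest. Cd4 averaged from 132 ± 83.8 CPM (n = 3) in Control to 224 ± 156 CPM (n = 10) in Distal normal sums. The homing receptor gene Ccr7 averaged 397 ± 68.3 CPM (n = 3) in Pre-MET and 800 ± 750 CPM (n = 8) in Metastasis, where 1 sum reached 2426 CPM. Il7r ranged from a mean of 513 ± 174 CPM (n = 4) in Primary tumor to 856 ± 378 CPM (n = 10) in Distal normal sums. In Pre-MET lungs Ccr7 (319 to 448 CPM) and Klf2 (156 to 282 CPM) lay below every Control sum (597 to 717 and 298 to 474 CPM), and neither passed the test (edgeR adjusted p = 0.765 and 0.819). Lef1, Tcf7, Cd4, Il7r and S1pr1 overlapped between these statuses. The median log2 difference of all genes was -0.42 there. How many of all genes failed to overlap was not counted, so this sets neither gene apart.

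Across all genes, the sums were compared with edgeR's quasi-likelihood test, 8 comparisons of 7600 genes each, and a gene was called at a Benjamini-Hochberg adjusted p under 0.05. The median log2 difference of all genes was itself -0.42 for Pre-MET against Control, 0.04 for Relapse-free against Control, -0.46 for Distal normal against Control, -0.48 for Distal normal against Relapse-free, -0.02 for Metastasis against Distal normal, -0.01 for Core against Margin, 0.18 for Primary tumor against Core and 0.32 for Primary tumor against Pre-MET. For the 832 genes averaging at least 200 CPM the median was -0.29, -0.04, -0.66, -0.60, 0.01, -0.12, 0.22 and -0.12 in the same order. Differences of gene groups are read beside these shifts, which differ with gene level. The log2 differences use sums scaled by TMM normalization and CPM do not, so their signs can differ.

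No gene was called between Pre-MET and Control lungs (0% of 7600), which compares Lef1 T cells of lungs with and without a tumor elsewhere in the body. Control shares no sequencing batch with Pre-MET or Relapse-free lungs, so batch and status cannot be told apart in either comparison. At an unadjusted p under 0.05 edgeR had 622 genes and DESeq2 302, and DESeq2 called 0. The genes with the smallest p were Mtf2, Dok2 and Upf2, each at 0 UMIs in Pre-MET against 57, 46 and 42 UMIs in Control, at least 7.13-, 5.82- and 5.19-fold lower over the group (edgeR adjusted p = 0.527 for each). Between Control sums they ranged from 23.4 to 208, 39 to 131 and 39 to 106 CPM. The naive genes lay below 0 in 15 of 18 cases with a median of -0.52, close to that of all genes. Genes of the T cell receptor complex lay below 0 in 17 of 18 (median -0.70), the Gimap GTPases of lymphocyte survival in 8 of 8 (median -0.83), and the type I interferon response in 19 of 35 (median -0.07). Markers of other cell types also lay below 0, those of CD8 T and NK cells in 7 of 7 (median -1.10), B cells in 5 of 6 (median -1.02), Treg in 4 of 5 (median -0.60) and erythroid cells in 3 of 3 (median -3.10), and myeloid markers in 5 of 10 (median -0.03). The summed level of 8 CD8 T and NK cell markers was 906 to 1270 CPM in Pre-MET, with Klrb1c at 0, and 1493 to 1943 CPM in Control sums, which did not overlap. That of 10 B cell markers was 638 to 1381 CPM in Pre-MET, with 8 detected and Cd79a at 0, and 883 to 1161 CPM in Control. That of 5 erythroid markers was 0 to 44.6 CPM, with 1 detected, and 13 to 45.4 CPM, with 4 detected. The part of these markers was not tested.

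Between Relapse-free and Control lungs 0 genes were called (0%), with 244 at an unadjusted p under 0.05 by edgeR, 137 by DESeq2 and 0 called by DESeq2. Gm12319 (3.13), Snord15a (3.43) and Cep85 (3.47) had the smallest p (edgeR adjusted p = 1 for each). In a fit of these 2 statuses alone 6 genes were called. Of 15 tested activation and checkpoint genes 13 lay above 0 (median 0.59), of 16 effector and memory genes 14 (median 0.47), of 20 stress and immediate-early genes 16 (median 0.53), and of 18 naive genes 7 (median -0.05), beside 0.04 for all genes. Treg markers lay above 0 in 5 of 5 (median 0.70), with summed levels of 168 to 448 CPM in Relapse-free and 117 to 260 CPM in Control sums (6 of 6 detected in both). Markers of lung epithelium lay above 0 in 2 of 2 (median 2.59), with summed levels of 0 to 255 CPM in Relapse-free and 10.1 to 39 CPM in Control, and erythroid markers in 3 of 3 (median 1.72), with 18.3 to 469 and 13 to 45.4 CPM. The part of these markers was not tested.

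Distal normal tissue gave 56 calls against Control (0.737% of genes), 4 higher (0.0526%) and 52 lower (0.684%), and 87 against Relapse-free (1.14%), 2 higher (0.0263%) and 85 lower (1.12%). The count against Control fell when any Control mouse was left out, with values given at the end. Both comparisons share the Distal normal sums. Of the 56 calls, 28 were pseudogenes, 6 ribosomal protein genes, 2 mitochondrial genes, 11 other predicted genes and 9 other genes, and of the 87 calls, 55, 7, 5, 10 and 10. DESeq2 called 73 against Control, of which 13 were higher. Ribosomal protein genes and their pseudogenes have near-identical copies, so reads could be split or dropped among them, and these rows are uncertain.

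Levels of the called ribosomal and mitochondrial genes differed between sequencing batches. Rps29, a protein of the small ribosomal subunit, averaged 1298 CPM in Control and 170 CPM in Distal normal sums (edgeR log2 difference -3.76, SE 0.604, adjusted p = 5.92e-06). In the non-T cells of the same samples it averaged 435 and 51.9 CPM. Rpl35 of the large subunit averaged 3195 and 927 CPM (-2.68, SE 0.447, edgeR adjusted p = 1.03e-05), and mt-Co2, a subunit of the respiratory chain, 2751 and 1029 CPM (-2.10, SE 0.409, edgeR adjusted p = 0.000447). All Control sums were sequenced in 1 batch that held no Distal normal sum, so batch and status cannot be told apart in that comparison. Within the Relapse-free status Rps29 ranged from 67.2 to 1496 CPM between batches, and the Metastasis and Core sums of mouse 30, sequenced in batch SB123, held 1860 and 1811 CPM where the other Metastasis and Core sums held at most 342 and 281 CPM. With batch as a term, Distal normal against Relapse-free gave 0 calls by edgeR in the 16 sums of these statuses (92 genes at an unadjusted p under 0.05), and Rps29 differed by -0.35, Rps10 by -0.72, Rps24-ps2 by -0.84 and mt-Rnr1 by -0.82. Without the sums whose cells came from more than 1 batch it also gave 0 calls. In batch SB112, with 1 sum of each status, Rps29 was 483 CPM in Relapse-free and 178 CPM in Distal normal, Rps10 316 and 89.1 CPM, and Rps27 459 and 238 CPM. In batch SB118 the Relapse-free sum held 115 CPM of Rps29 and the 4 Distal normal sums 172 to 245 CPM, and in batch SB128 the values were 67.2 CPM and 65 to 74 CPM. In SB118 the Relapse-free sum lay above all 4 Distal normal sums for Rps10 (286 against 28.7 to 245 CPM) and Rps27 (1031 against 344 to 754 CPM), and in SB128 it lay within their range for Rps10 (104 against 103 to 197 CPM) and Rps27 (195 against 173 to 214 CPM). In these batches each Distal normal sum held less mt-Co2 than the Relapse-free sum, with 1604 against 2046 CPM in SB112, 735 to 1605 against 1890 CPM in SB118 and 562 to 616 against 642 CPM in SB128. Batch SB124, with 3 Distal normal sums, held no Relapse-free sum. Over the alternative fits mt-Co2 differed by -2.15 to -0.28 and was called in 7 of 9. Without ribosomal, mitochondrial, pseudogene and predicted rows, a setting chosen after the data were seen, 5 genes were called against Control and 0 against Relapse-free.

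**Figure D4:**
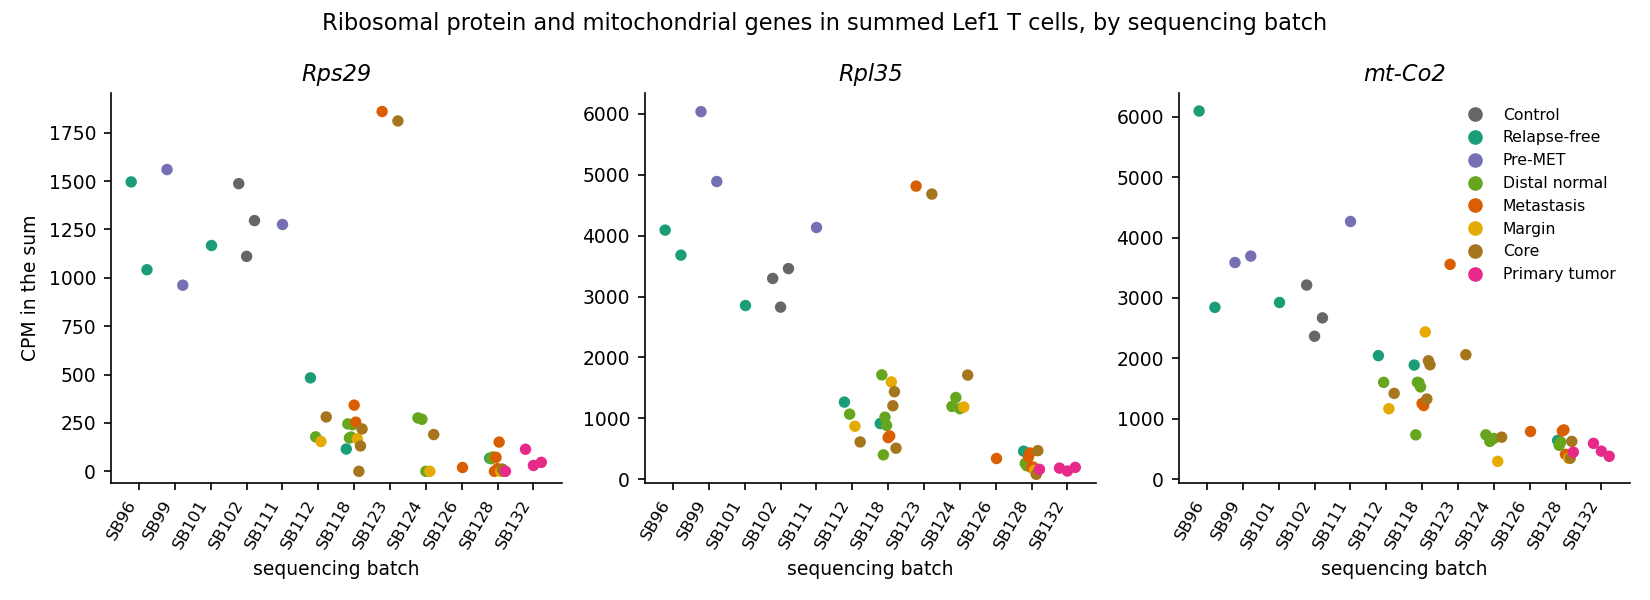
CPM (y axis) of 2 ribosomal protein genes and mt-Co2 in sums of Lef1 T cells (points, colored by tissue status) by sequencing batch (x axis; a sum of more than 1 batch is placed in that of most of its cells). Rps29 spans 67.2 to 1496 CPM within Relapse-free sums, and the 2 sums of batch SB123 (1860 and 1811 CPM) belong to Metastasis and Core.

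No list of T cell genes held a call in either Distal normal comparison. Against Relapse-free, activation genes lay above 0 in 6 of 15 (median -0.10) and stress genes in 8 of 20 (median -0.23). Naive genes lay below 0 in 18 of 18 (median -0.46) and genes of the T cell receptor complex in 16 of 18 (median -0.65). Effector genes lay below 0 in 14 of 16 (median -0.67), beside -0.48 for all genes. Against Control, 17 of 18 naive genes lay below 0 (median -0.60), 15 of 16 migration genes (median -0.81) and 15 of 18 genes of the T cell receptor complex (median -0.84), beside -0.46 for all genes. Activation genes lay above 0 in 12 of 15 (median 0.58) and stress genes in 16 of 20 (median 0.24). Of the markers of other cell types, those of Treg lay above 0 in 4 of 5 (median 0.65), those of B cells below 0 in 6 of 6 (median -1.93) and those of CD8 T and NK cells below 0 in 7 of 7 (median -0.59). The summed level of 6 Treg markers was 117 to 260 CPM in Control and 0 to 1247 CPM in Distal normal sums, that of 10 B cell markers 883 to 1161 and 0 to 1604 CPM, and that of 8 CD8 T and NK cell markers 1493 to 1943 and 552 to 2531 CPM, all detected in both statuses. Their part in these medians was not tested. Among the called genes outside the ribosome, Prg4, which codes for the lubricating glycoprotein lubricin, had 0 UMIs in 10 Distal normal sums against 13, 172 and 15.6 CPM in the Control sums. It was at least 14.8-fold lower over the group (edgeR adjusted p = 0.00756), and without Control mouse 2 its edgeR adjusted p was 0.4. Cep85, a centrosomal protein gene, rose by 4.00 (SE 0.979, edgeR adjusted p = 0.0146), from at most 13 CPM in Control to a mean of 258 ± 219 CPM (n = 10). Without Control mouse 1, 2 or 3 Cep85 was not called (edgeR adjusted p 0.0928, 0.117 and 0.236). H2-Ab1, an MHC class II gene of antigen-presenting cells, fell by 2.25 against Relapse-free (SE 0.632, edgeR adjusted p = 0.0421), from 164 ± 125 CPM (n = 6) to 47 ± 85.3 CPM (n = 10). H2-Ab1 was called in 1 of 9 alternative fits and differed by -0.55 with batch as a term (edgeR adjusted p = 0.997). B cell markers moved with it, with 6 of 6 tested below 0 (median -1.97, H2-Ab1 among them), as did those of myeloid cells with 9 of 10 (median -0.84) and of CD8 T and NK cells with 7 of 7 (median -0.68). The summed level of 10 B cell markers was 57.3 to 1522 CPM (median 664) in Relapse-free and 0 to 1604 CPM (median 324) in Distal normal sums, all 10 detected in both, and that of 12 myeloid markers 820 to 5616 and 545 to 8524 CPM, all 12 detected in both. Their part in these calls was not tested.

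Metastasis (8 sums) and Distal normal tissue (10 sums, 6 of them from mice with a Metastasis sum) differed in 0 called genes (0%), with 599 at an unadjusted p under 0.05 by edgeR, 318 by DESeq2 and 0 called by DESeq2. Gne (4.90), 2700012I20Rik (4.91) and Tmub1 (3.88) had the smallest p (edgeR adjusted p = 0.19 for each). Naive genes were split, 9 above and 9 below 0 (median 0.01), as were those of the T cell receptor complex (median 0.06). Effector genes lay above 0 in 11 of 16 (median 0.56) and interferon genes in 23 of 35 (median 0.28). Markers of myeloid cells lay below 0 in 6 of 10 (median -1.04), those of B cells above 0 in 4 of 6 (median 0.49) and those of lung epithelium below 0 in 2 of 2 (median -2.55). The summed level of 12 myeloid markers was 798 to 2191 CPM in Metastasis and 545 to 8524 CPM in Distal normal sums, all 12 detected in both. That of 10 B cell markers was 100 to 1129 CPM in Metastasis, with 8 of the 10 detected and Ms4a1 at 0, and 0 to 1604 CPM in Distal normal. All 8 epithelial markers were at 0 in Metastasis, and 3 of the 8 were detected in Distal normal (0 to 267 CPM). Their part in these medians was not tested.

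Core and Margin also differed in 0 called genes (0%), with 436 at an unadjusted p under 0.05 by edgeR, 122 by DESeq2 and 0 called by DESeq2. Fiz1 and Leng9 had 0 UMIs in the Core against 19 and 15 in the Margin, and Igkc, the light chain of B cells, had 131 against 5 UMIs (edgeR adjusted p = 0.785 for each). Of the 18 naive genes 16 lay below 0 in the Core (median -0.47), of the Gimap genes 7 of 8 (median -0.41), and of 20 survival genes 15 (median -0.27). Activation genes lay above 0 in 13 of 15 (median 0.63). Markers of CD8 T and NK cells lay above 0 in 5 of 7 (median 0.50), with summed levels of 1811 to 3135 CPM in Core and 1513 to 2601 CPM in Margin sums (8 of 8 detected in both), and B cell markers in 4 of 6 (median 0.89). The part of these markers was not tested. All genes had a median of -0.01.

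Primary tumors differed from metastasis Cores in 15 called genes (0.197%), 9 higher (0.118%) and 6 lower (0.0789%). Dapl1, a gene of quiescent naive T cells (chr2:59484653-59505020, plus strand, mm10), was 1143, 1017, 1230 and 946 CPM in Primary tumor mice 8, 9, 10 and 38. In the 8 Core sums it ranged from 0 to 562 CPM with a median of 154 CPM. All 4 tumor sums lay above every Core sum, and Dapl1 rose by 2.57 (SE 0.507, edgeR adjusted p = 0.000957). In batch SB128, the only one that held both, Dapl1 was 1143 CPM in the tumor and 162 and 0 CPM in the Cores. The batch-term difference, which rests on that batch, was 3.03. With cells thinned to 500 UMIs, since the Lef1 T cells of tumors held more UMIs each, Dapl1 differed by 1.72 (edgeR adjusted p = 0.153).

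Ltb, the lymphotoxin beta chain that naive lymphocytes carry (chr17:35194439-35196320, plus strand, mm10), was 1755, 1851, 2984 and 1465 CPM in the same tumors and 121 to 1159 CPM in the Cores, with a median of 357 CPM. The groups did not overlap, and Ltb rose by 2.18 (SE 0.46, edgeR adjusted p = 0.0032). Unlike Dapl1, its difference was small with batch as a term, at 0.55, a value that again rests on batch SB128. Without mouse 10 the difference was 1.89 (edgeR adjusted p = 0.11).

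Fos, an immediate-early transcription factor that also responds to tissue digestion, was 408, 34.3, 105 and 46.4 CPM in the tumors. In the Cores it ranged from 0 to 2725 CPM with a median of 1385 CPM, and 1 Core sum at 0 makes the groups overlap. Fos fell by 3.27 (SE 0.61, edgeR adjusted p = 0.000561), and by 2.16 with batch as a term, which rests on 1 tumor sum and 2 Core sums. Rgs2, a regulator of G protein signaling, was 0, 91.4, 60 and 64.9 CPM in the tumors against a Core median of 647 CPM, a difference of -2.87 (SE 0.687, edgeR adjusted p = 0.0252). Rgs2 was not called without Primary tumor mouse 8, 10 or 38 (edgeR adjusted p = 0.0917, 0.124 and 0.0959). Lungs and tumors were dissociated with different programs, and the part of this in the levels of Fos was not tested.

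**Figure D5:**
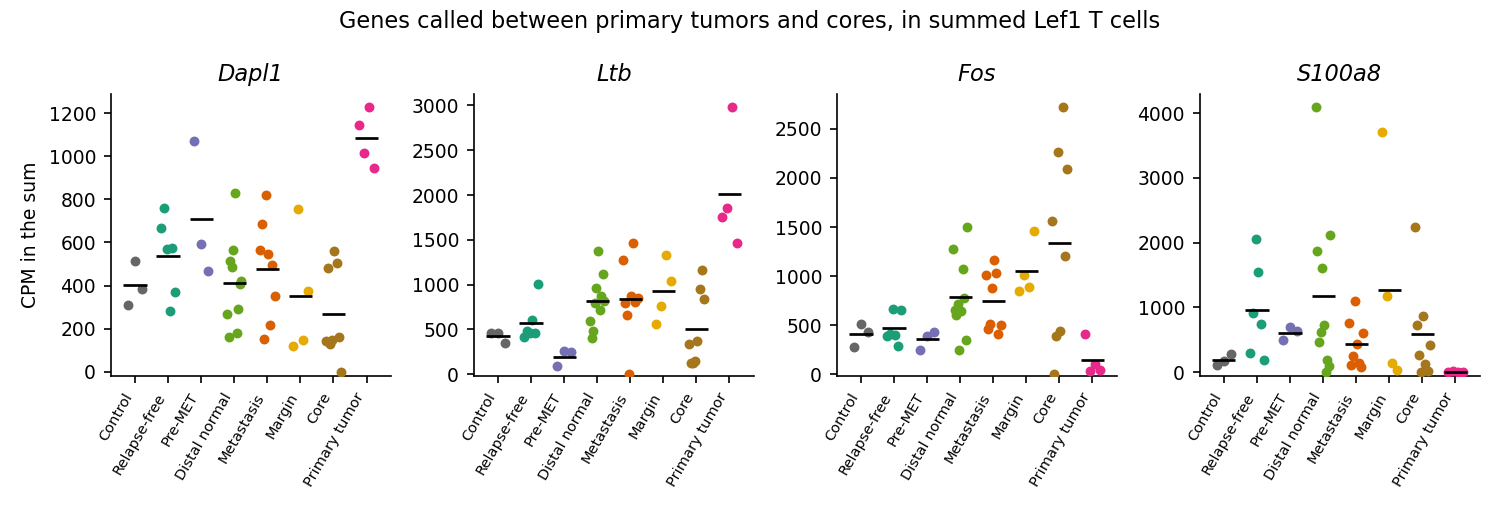
CPM (y axis) of 4 genes in the 46 sums of Lef1 T cells (points) by tissue status; lines are means. Dapl1 is 946 to 1230 CPM in the 4 Primary tumor sums and 0 to 562 CPM in the 8 Core sums, and S100a8 is at most 11.4 CPM in Primary tumors.

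Of the lists, the naive genes held 1 call (Dapl1) with 13 of 18 above 0 in Primary tumors (median 0.95), and genes of the T cell receptor complex held 0 calls with 17 of 18 above 0 (median 0.80), beside 0.18 for all genes. Stress genes held 1 call (Fos) with 15 of 20 below 0 (median -0.65). Activation genes lay below 0 in 11 of 15 (median -0.99), and MHC class I genes above 0 in 13 of 15 (median 0.55), with 0 calls. The predicted transcripts Gm26870, Gm10801 and Gm10800 were called higher, but most of their UMIs came from mouse 10, and without it none of the 3 passed (edgeR adjusted p 0.448, 0.348 and 0.348). Scai had 28 UMIs in tumors and 0 in Cores and was at least 8.74-fold higher over the group (edgeR adjusted p = 0.0341), and was not called without Primary tumor mouse 9 or 10 (edgeR adjusted p = 0.145 and 0.11). With batch as a term, the difference between the 2 statuses rests on batch SB128, with 1 Primary tumor and 2 Core sums. Calls are therefore not counted for that fit.

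Genes of other cell types were among the lower calls. S100a8, a neutrophil gene, had 2 UMIs in the tumor sums and 344 in the Core sums, 311 of them in mouse 17 (-5.97, SE 1.01, edgeR adjusted p = 5.23e-05). Its partner S100a9 had 0 and 110 UMIs, 98 of the latter in mouse 17, and was at least 18.3-fold lower over the group (edgeR adjusted p = 0.00133). Without the Core sum of mouse 17, a setting added after the data were seen, S100a8 differed by -4.49 (edgeR adjusted p = 0.0108), and S100a9 (-5.39, edgeR adjusted p = 0.103), Rgs2 (-2.65, edgeR adjusted p = 0.0704) and Scai (5.87, edgeR adjusted p = 0.0877) were not called. Of 10 tested myeloid markers 9 lay below 0 (median -2.13), as did 3 of 3 erythroid (median -4.23) and 2 of 2 epithelial markers (median -3.78), and every erythroid and epithelial marker was at 0 in Primary tumors. Igkc had 3 and 131 UMIs (-4.82, SE 1.08, edgeR adjusted p = 0.01), and 2 Core sums, mice 27 and 36, held 3006 and 1124 CPM. Igkc was not called without Primary tumor mouse 10 or 38 (edgeR adjusted p = 0.0668 and 0.0959). It was the only B cell marker below 0, with 5 of 6 above (median 1.21). S100a8 was detected after thinning in 23.6% of Lef1 T cells, 24.2% of NK cells and 18% of B cells. The summed level of 12 myeloid markers was 405 to 816 CPM in Primary tumors, with S100a9, Ngp and Chil3 at 0, and 730 to 5337 CPM in Cores, with Csf3r at 0. That of 10 B cell markers was 795 to 1502 CPM in Primary tumors, with Cd79a and Ms4a1 among those at 0, and 105 to 6274 CPM in Cores, with Cd79a at 0. The part of these markers in the other calls was not tested.

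Primary tumors and Pre-MET lungs, 3 of them from the same mice, gave 234 calls (3.08%), 49 higher (0.645%) and 185 lower (2.43%). The count fell when any sum was left out, with values given at the end. Of the 234 calls, 119 were pseudogenes, 15 ribosomal protein genes, 2 mitochondrial genes, 29 other predicted genes and 64 other genes. The 2 statuses share no sequencing batch, so batch, organ and dissociation cannot be told apart from tumor status. Rpl35 fell by 4.85 (SE 0.641, edgeR adjusted p = 8.51e-09), from 5025 ± 953 CPM (n = 3) to 169 ± 26.1 CPM (n = 4). Without ribosomal, mitochondrial, pseudogene and predicted rows 22 genes were called.

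Pkm, the pyruvate kinase of glycolysis (chr9:59656368-59679375, plus strand, mm10), was 286, 457, 945 and 853 CPM in the tumors of mice 8, 9, 10 and 38. In Pre-MET lungs of mice 8, 9 and 10 it was 22.3, 22.4 and 37.5 CPM, 5 UMIs in all. Each tumor value exceeded each lung value, and Pkm rose by 4.53 (SE 0.954, edgeR adjusted p = 0.000768). It was called in 15 of 15 alternative fits. Pkm averaged 206 ± 83.9 CPM (n = 3) in Control and 274 ± 126 CPM (n = 8) in Core sums, so the Pre-MET mean was the lowest of the 8 statuses. In the non-T cells of the same samples Pkm averaged 346 CPM in Pre-MET and 1323 CPM in Primary tumors. In batch SB128 the tumor sum (286 CPM) lay below the 2 Core sums (366 and 371 CPM). Glycolysis genes as a list had 1 call and lay above 0 in 9 of 10 (median 1.41), beside 0.32 for all genes.

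Other genes of T cell function were singled out after their values were seen. Ltb rose by 3.29 (SE 0.675, edgeR adjusted p = 0.000492), from 89.1, 257 and 244 CPM in Pre-MET mice 8, 9 and 10. Il2rg, the common chain of the receptors for interleukins 2, 7 and 15, rose by 2.11 (SE 0.621, edgeR adjusted p = 0.0331), from 332 ± 117 CPM (n = 3) to 1362 ± 399 CPM (n = 4). The actin-binding Cfl1 rose by 2.79, Pfn1 by 1.59 and Tmsb10 by 1.69 (edgeR adjusted p 0.00368, 0.0362 and 0.036). In the non-T cells of the same samples Cfl1 averaged 404 CPM in Pre-MET and 2338 CPM in Primary tumors, and Tmsb10 1115 and 1727 CPM. Il2rg, Pfn1 and Tmsb10 were each called in 6 of 15 alternative fits, and lost the call without any 1 of the Pre-MET mice 8, 9 and 10 and without Primary tumor mouse 9, 10 or 38. Cfl1 also differed between batches, at 2341 and 2299 CPM in the Core sums of mice 36 and 37, which share batch SB128 with the tumor of mouse 8, and 312 to 845 CPM in the other Core sums. So did Tmsb10, at 5505 to 6990 CPM in the Distal normal sums of batch SB124 and 1286 to 2204 CPM in those of SB118. Klf3, a quiescence factor of the Krüppel family, fell by 3.24 (SE 0.804, edgeR adjusted p = 0.00682), from 134, 492 and 619 CPM to 0, 80, 15 and 46.4 CPM. Klf3 was not called without Pre-MET mouse 9 or 10 (edgeR adjusted p = 0.0598 and 0.0677). Isg15, an interferon-stimulated gene, had 0 UMIs in Pre-MET and 83.5 to 163 CPM in the tumors, at least 6.33-fold higher over the group (edgeR adjusted p = 0.0402). It was called in 4 of 15 alternative fits, and its edgeR adjusted p was 0.171 with mouse as block.

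Cd27, a co-stimulatory receptor of naive and memory cells, had 0 UMIs in Pre-MET and 286, 0, 480 and 111 CPM in the tumors, at least 11.1-fold higher over the group (edgeR adjusted p = 0.00755). Without Pre-MET mouse 9 neither Cd27 nor Spp1 was called (edgeR adjusted p = 0.0725 and 0.0628), nor was Cd27 without Primary tumor mouse 10 (edgeR adjusted p = 0.0648). Spp1, osteopontin, which tumor cells and macrophages secrete, had 0 UMIs in Pre-MET and 857, 45.7, 330 and 158 CPM in the tumors, at least 14-fold higher over the group (edgeR adjusted p = 0.00619). It belongs to a list of 7 tumor and stroma markers, whose summed level was 57.1 to 980 CPM in Primary tumors with Epcam, Col1a1 and Col1a2 at 0. In Pre-MET that sum was 0 to 66.8 CPM. S100a8 fell by 6.16 (SE 1.07, edgeR adjusted p = 2.56e-05). Naive genes as a list held 1 call (Klf3) and were split 9 to 9 (median 0.12), and interferon genes held 1 call (Isg15) with 26 of 35 above 0 (median 0.69). Markers of other cell types differed as well. Igkc fell by 5.05 (SE 1.16, edgeR adjusted p = 0.00252), from 936, 235 and 131 CPM to 0, 22.9, 15 and 0 CPM, and was not called without Pre-MET mouse 8 (edgeR adjusted p = 0.0779) or by DESeq2 (adjusted p = 0.0761), while the other 5 tested B cell markers lay above 0 (median 1.15 with Igkc). Myeloid markers lay below 0 in 9 of 10 (median -1.22), with summed levels of 405 to 816 CPM in Primary tumors and 1471 to 2260 CPM in Pre-MET, where Csf3r and Ngp were at 0. CD8 T and NK cell markers lay above 0 in 7 of 7 (median 0.77; 1080 to 2319 against 906 to 1270 CPM) and Treg markers in 3 of 5 (median 1.35; 286 to 750 against 44.6 to 168 CPM, with Foxp3 at 0 in Pre-MET). Their part in the list medians and the other calls was not tested. The 7 defining genes differed by -0.51 to 0.07 between these statuses, and 0 of them was called.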

How the data were processed

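Single-cell libraries were prepared from sorted cells in 148 plates of 384 wells by SPID-seq, a 3' plate method. Per the study's methods, the authors mapped reads to mm10 with HISAT 0.1.6, kept uniquely mapped reads in exons, counted UMIs and annotated cells of at least 500 UMIs by metacells. Demultiplexing used bcl2fastq 2.15.0.4 per the submitters' processing notes. The authors deposited raw UMI counts of 52634 gene rows per well, with a cell table. Counts of Lef1 T cells were summed per mouse and status (10 or more cells) and fitted in 1 model over all 8 statuses with edgeR 4.0.16 (quasi-likelihood, TMM, filterByExpr with min.count 3, Benjamini-Hochberg over 7600 genes), with DESeq2 1.42.0 as an alternative. Gene levels are CPM, and a floor is 3 UMIs over a group, set against the lower of the other group's pooled and mean CPM. Fold bounds from this floor do not take in the spread between mice. Shares were compared by two-sided permutation tests (up to 100000 resamples) over samples. Doublets were excluded at sorting per the labels, and no caller was run.

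Alternatives were a fit of 2 statuses, min.count 10, no filter, sums of at least 20 cells, cells thinned to 500 UMIs, mouse as block, sequencing batch as a term and leaving out each sum in groups of up to 5; those without sums of mouse 17, 30 or 36, without ribosomal, mitochondrial, pseudogene and predicted rows, with batch held fixed for shares, and without the 7 samples whose cells came from more than 1 batch in the settings with batch were chosen after seeing the data. Members and gene lists were chosen with earlier results of these data known. Named genes were 7 fixed genes (Lef1, Tcf7, Cd4, Ccr7, Il7r, S1pr1 and Klf2; another is not reported here), up to 12 called genes of the lists per comparison, the 6 largest rises and falls among the other calls, and, where no gene was called, the 3 with the smallest p; not all are printed. Same-status sums differed by a chi-square per degree of freedom of 1.73 to 18.9 in 134 pairs, and 0 well names were shared. The Distal normal sum of mouse 36 stood apart in depth (476959 UMIs). Samples of 1 mouse come from the same animal; deviations of such sums correlated by a mean of 0.194 (Metastasis and Distal normal, 6 pairs), 0.395 (Core and Margin, 3) and -0.00534 (Primary tumor and Pre-MET, 3). Gene classes came from GENCODE vM21, which matched 7427 genes (97.7%). Scripts were tested on simulated counts with 200 genes changed by a log2 difference of 2. The share recovered was 0.5% for Pre-MET against Control and 22.5% for Metastasis against Distal normal. In the other comparisons it was 1% to 8%. Among changed genes over 200 CPM the share was 3.23% for Pre-MET against Control and 6.67% for Primary tumor against Pre-MET. It was 14.7% for Core against Margin, 15% for Relapse-free against Control and 53.1% for Metastasis against Distal normal. For the rest it was 30.8% to 42.9%. For Distal normal against Control 9 of 22 simulated calls were false, and in the other comparisons 0 to 3 were false. So 0 calls in a comparison do not show that its statuses are alike. Python 3.11.15 and R 4.3.3 were used.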

Additional observations from a re-analysis of the deposited data

Results flagged for a closer look

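In groups of 4 to 10 sums, the highest or lowest sum stood far from the rest (Dixon's test) in 17 of 132 gene and status groups (12.9%). For normal values of equal precision chance gives about 1 in 20. These sums differ widely in depth, and many of the genes were chosen for their calls or large differences. An excess over chance therefore cannot be read from this count. Among the defining genes these were Lef1 in the Margin of mouse 17 (320 CPM, nearest other sum 589), Cd4 in Relapse-free mouse 29 (458 CPM, 8 UMIs), S1pr1 in the Core of mouse 27 (523 CPM, 4 UMIs), and Klf2 in the Margin of mouse 31 (2077 CPM, 14 UMIs) and the Core of mouse 34 (1458 CPM, 23 UMIs).

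Among ribosomal, mitochondrial and pseudogene rows they were mt-Atp6 in Distal normal mouse 34 (2994 CPM), Rpl10-ps1 in Distal normal mouse 30 (80.4 CPM, 1 UMI), Gm16209 in Relapse-free mouse 29 (115 CPM, 2 UMIs), Rpl35 in the Core of mouse 30 (4684 CPM), whose batch stood apart, and Rpl7 in Primary tumor mouse 8 (408 CPM). Primary tumor mouse 10 stood out for Gm26870 (3554 CPM), Gm10801 (3089 CPM) and Adam17 (495 CPM). Gne stood out in Metastasis mouse 24 (424 CPM). Genes of other cell types stood out in the Cores of mouse 27 (Igkc, 3006 CPM) and mouse 17 (S100a8, 2243 CPM), and in Distal normal mouse 17 (H2-Ab1, 267 CPM).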

How the results depend on the processing

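Over all immune cells instead of T cells, the difference in the share of Lef1 T cells was -8.175 points for Pre-MET against Control, 0.5147 for Core against Margin and -0.2094 for Primary tumor against Core, each opposite in sign to the share of T cells, and -10.75 for Distal normal against Relapse-free, which then passed (permutation, adjusted p = 0.0192). Among cells of at least 1000 UMIs, Relapse-free against Control was -5.846 points. With batch held fixed, Metastasis against Distal normal was -15.28 points (-13.61 without samples of more than 1 batch, when it did not pass) and Primary tumor against Core -4.435.

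Relapse-free against Control had 6 calls with only these statuses in the fit, 1 without a filter and 2 with sums of at least 20 cells. Distal normal against Control had 22 calls at min.count 10, 5 without ribosomal, mitochondrial, pseudogene and predicted rows, and 20 to 32 when Control mouse 1, 2 or 3 was left out. Distal normal against Relapse-free had 37 in a fit of these statuses, 142 with DESeq2, 8 at min.count 10, 37 with sums of at least 20 cells, 0 with batch as a term, also without sums of more than 1 batch, and 0 without the rows named above. Metastasis against Distal normal had 1 without a filter and 1 with sums of at least 20 cells. Primary tumor against Core had 8 in a fit of these statuses, 8 with DESeq2, 6 with cells thinned, 7 without those rows, and 6 to 17 when 1 sum was left out (6 without Primary tumor mouse 10). Its fit with batch as a term rests on 1 Primary tumor and 2 Core sums, so calls are not counted there. Primary tumor against Pre-MET had 22 without those rows and 108 to 218 when 1 sum was left out (108 without Pre-MET mouse 9; 129, 139, 144 and 127 without Pre-MET mouse 8 or 10 or Primary tumor mouse 9 or 10). Fewer genes or sums enter several of these fits; otherwise the cause was not tested.

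With mouse as replicate block, Metastasis against Distal normal had 0 calls, Core against Margin 0 and Primary tumor against Pre-MET 169; in shares the paired differences were -12.55, -6.372 and -33.7 points, and the block changed no call among them. Values of the named genes other than the 7 fixed ones were also followed over the alternatives. Of these values, 5 reversed, all with batch as a term: Rpl7 at 0.31, and at 0.35 without sums of more than 1 batch, when Rps27-ps1 was at 0.03 (Distal normal against Relapse-free), Gm10801 at -0.12 and Gm10800 at -2.29 (both Primary tumor against Core). Of the others, 828 kept direction and call, 234 lost the call and 3 gained it. Sums of 10 to 30 cells hold few UMIs, which limits what is detectable for genes of low level. Larger sums and higher genes were limited too. Pre-MET and Control sums held 52 to 173 cells, and the recovered share given above for genes over 200 CPM was 3.23% there.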
